A study of Homo sapiens with 8 samples.

Results

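The HOX genes were the 23 probe sets whose gene symbol in the platform annotation is HOXA, HOXB, HOXC or HOXD followed by a number, out of 21448 transcript probe sets on the array. The reference gene table holds 39 such genes, so 16 were not analysed here: 10 of the 11 HOXA genes, HOXB3, HOXB4, HOXC4, HOXC5, HOXC6 and HOXD1. The members were HOXA2 alone in cluster A, 8 of 10 genes in cluster B, 6 of 9 in cluster C and 8 of 9 in cluster D. Statements about cluster A therefore rest on 1 gene. The series measured gene expression on 8 one-colour arrays (Affymetrix). MT-1 is labelled as a line of adult T cell leukaemia. MT-2 is labelled as infected with HTLV-1, the retrovirus behind that disease. Each line was left untreated, given OR21, a DNA demethylating agent, given EPZ-6438 (tazemetostat), which blocks the histone-modifying enzyme EZH2, or given both. Doses differed between the lines: OR21 was used at 500 nM in MT-1 and 100 nM in MT-2, and EPZ-6438 at 2500 nM in MT-1 and 500 nM in MT-2. Exposure lasted 96 h, with a second addition of each compound at 48 h, and all cells grew in RPMI-1640 with serum. Every group was a single array of a single established line, so a difference within a line has no replicate error, and a difference in response between the lines cannot be told apart from the difference in dose.

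HOX genes encode homeodomain transcription factors that set position along the body axis, and their number within a cluster (the paralogue number) follows their order on the chromosome, with number 13 at the 5′ end. Low numbers act towards the head and high numbers towards the tail and the ends of the limbs. In most differentiated cells the clusters are held silent by Polycomb group proteins, whose complex PRC2 places the repressive H3K27me3 mark through EZH2, while trithorax group proteins such as KMT2A keep active HOX genes on. HOX genes of clusters A and B are used in blood progenitors and decline as blood cells mature, and HOX genes of cluster A are driven in several acute leukaemias. HOX promoters are also rich in CpG sites, where DNA can be methylated. Both agents of the study act on these systems of repression.

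Promoter sequences were available in RefSeq tables (build GRCh38.p14) for 9 of the 23 members: HOXA2, HOXB1, HOXD3, HOXD4, HOXD8, HOXD10, HOXD11, HOXD12 and HOXD13. The promoters shown here are the 4 neighbours at the 5′ end of cluster D, on which the MT-1 results turn: HOXD13, HOXD11 and HOXD10, which stood above background in MT-1 cells only on the combination array, and HOXD12, which lies between HOXD13 and HOXD11 and did not. Each runs from 250 bases before the transcription start to 50 bases after it on the + strand, at chr2:176092471-176092770, chr2:176099545-176099844, chr2:176107030-176107329 and chr2:176116528-176116827 respectively. Capitals mark CG dinucleotides.
HOXD13: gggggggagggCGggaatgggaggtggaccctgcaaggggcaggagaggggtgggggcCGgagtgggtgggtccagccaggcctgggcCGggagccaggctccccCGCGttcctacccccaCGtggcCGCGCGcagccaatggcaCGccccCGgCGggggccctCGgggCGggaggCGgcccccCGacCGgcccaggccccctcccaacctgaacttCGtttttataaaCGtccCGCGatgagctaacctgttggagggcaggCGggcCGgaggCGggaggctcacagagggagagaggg
HOXD12: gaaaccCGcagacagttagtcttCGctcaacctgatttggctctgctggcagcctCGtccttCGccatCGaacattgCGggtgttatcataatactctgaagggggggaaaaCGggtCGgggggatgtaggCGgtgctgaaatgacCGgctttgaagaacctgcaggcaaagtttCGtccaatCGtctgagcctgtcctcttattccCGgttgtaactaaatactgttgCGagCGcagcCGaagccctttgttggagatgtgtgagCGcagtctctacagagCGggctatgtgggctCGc
HOXD11: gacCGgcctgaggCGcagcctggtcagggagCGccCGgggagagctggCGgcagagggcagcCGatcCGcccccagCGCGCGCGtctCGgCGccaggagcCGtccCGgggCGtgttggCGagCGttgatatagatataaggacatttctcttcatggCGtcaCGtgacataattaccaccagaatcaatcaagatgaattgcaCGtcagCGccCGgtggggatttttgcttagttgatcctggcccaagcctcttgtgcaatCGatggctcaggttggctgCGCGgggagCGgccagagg
HOXD10: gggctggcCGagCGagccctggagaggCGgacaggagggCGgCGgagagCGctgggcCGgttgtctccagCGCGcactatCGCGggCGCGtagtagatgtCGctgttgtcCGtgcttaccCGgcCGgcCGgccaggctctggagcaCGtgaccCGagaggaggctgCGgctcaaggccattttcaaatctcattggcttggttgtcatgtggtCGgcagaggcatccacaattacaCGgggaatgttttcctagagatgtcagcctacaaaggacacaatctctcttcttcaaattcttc
The HOXD13 promoter held 24 CG sites, HOXD12 19, HOXD11 27 and HOXD10 23. All 4 lay above the median of 14 over the 35116 promoters of the same length in the table, and 33.9%, 42.9%, 28.2% and 35.8% of those promoters held at least as many. Of the other 5 members, HOXD8 held 34 CG sites, HOXD3 25, HOXA2 and HOXB1 11 each, and HOXD4 4. HOXD8, with the most CG sites of the 9, and HOXD4, with the fewest, both read higher by 1 log2 unit or more in MT-1 with the combination than without treatment, and both stayed below background. Whether the number of CG sites bears on the changes was not tested. The letters TATAAA were searched on both strands and found in HOXD13, at 2 overlapping places on opposite strands, and in no other of the 9, against 11.5% of all promoters. CCAAT was found in 7 of the 9 (34.6% of all promoters), among them HOXD13, HOXD12 and HOXD10. The hormone receptor half-site AGGTCA was found in 0 of the 9 (13.8% of all promoters). TGATNNAT, a form of the site bound jointly by HOX and PBX proteins, was found in HOXA2, HOXB1 and HOXD11 (7.40% of all promoters). These are matches of letters only.

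All values are log2 values as deposited, and the background of an array is the 95th percentile of its 612 negative-control probe sets, which lay between 7.19 and 7.80. Between 37.9% and 45.3% of all transcript probe sets stood above it per array. Across probe sets, the 12 pairs of arrays within a line had correlations of 0.955 to 0.994 (Pearson's r, a description), and the 16 pairs between lines had 0.871 to 0.885. Of the 9 T cell markers measured, the IL-2 receptor chain IL2RA and CD5 stood above background on all 8 arrays, CD4 only in MT-2, on all 4 arrays, and CD7 on 5 arrays. CD3D, CD3E, CD3G, CD2 and LCK stood above it on no array, so the CD3 chains were not detected in either line. The T cell receptor genes TRAC and TRBC1, also listed, had no named probe set and were not measured. Where only 1 of the arrays compared stood above background, the difference is taken against the background level of the other and given as a bound, with the words "at least" or "or lower".

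Most HOX genes were not detected. In each untreated line 2 of the 23 stood above background, HOXB2 and HOXB7 in MT-1 and HOXB7 and HOXB9 in MT-2, a smaller share than the 41.7% and 37.9% of all probe sets that did so. With OR21 or EPZ-6438 alone the number remained 2 in MT-1 and was 3 in MT-2, where HOXC9 was added in each case. Of all probe sets 43.5% stood above background with either agent in MT-1, and 39.6% and 41.4% in MT-2. With the combination 7 of 23 HOX genes (30.4%) did so in MT-1, against 45.3% of all probe sets. In MT-2 it was 4 of 23 (17.4%), against 39.7%. Over all 8 arrays 9 of 23 members stood above background at least once, where 11052 of all 21448 probe sets reached it. All 9 belong to clusters B, C and D. The other 14 never did: HOXA2 (3.06 to 5.09 over the arrays), 5 genes of cluster B (3.90 to 6.12: HOXB1, HOXB5, HOXB6, HOXB8 and HOXB13), 3 of cluster C (3.39 to 5.03: HOXC11, HOXC12 and HOXC13) and 5 of cluster D (3.38 to 6.76: HOXD3, HOXD4, HOXD8, HOXD9 and HOXD12). The background chosen decides these counts: with the 90th percentile of the negative controls 10 members stood above it at least once, with the 99th percentile only HOXB9 did, and with the highest negative control none did.

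**Figure D1:**
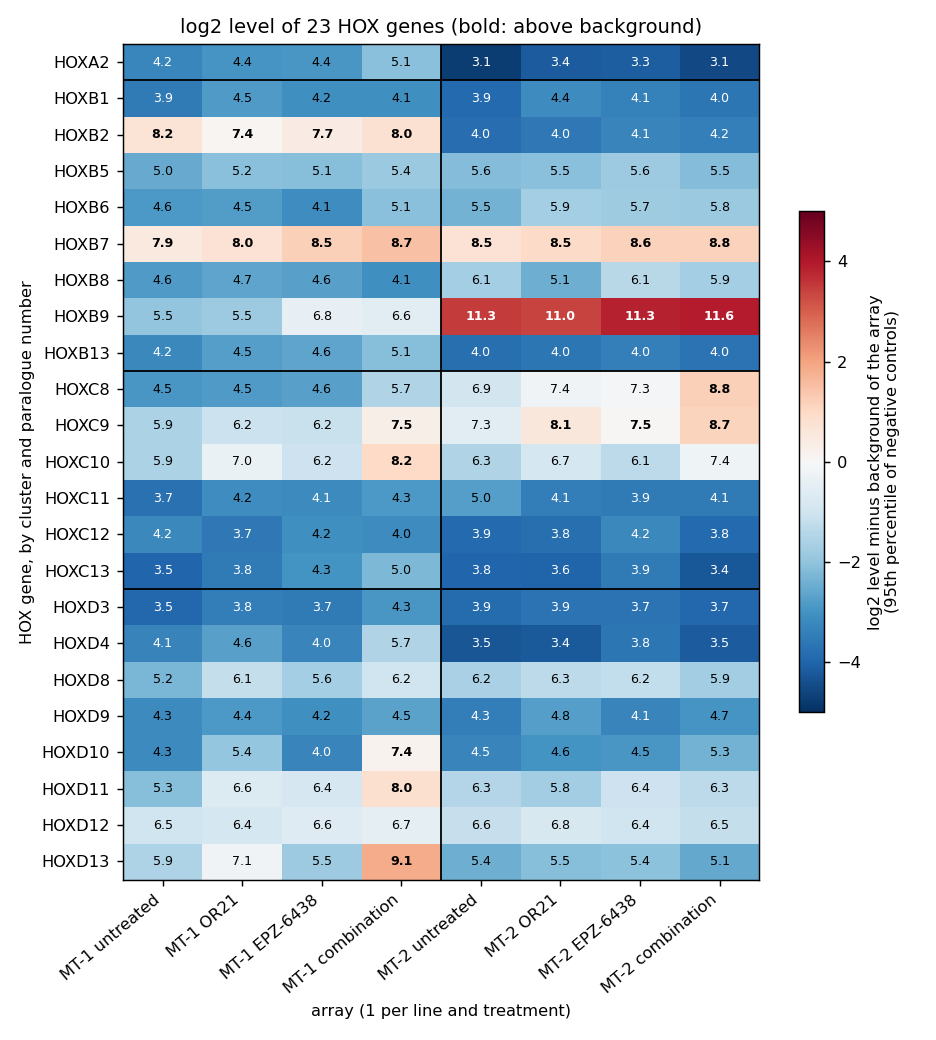
Each cell gives the log2 level of 1 HOX gene (vertical, by cluster and paralogue number) on 1 array (horizontal), coloured by its distance from the background of that array, with bold type above background. HOXB7 is bold on all 8 arrays, HOXB9 on the 4 MT-2 arrays and HOXB2 on the 4 MT-1 arrays, and HOXD10, HOXD11 and HOXD13 on the MT-1 combination array alone.

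The lines differed in which HOXB genes were detected. Counting all members whatever their level, 6 of 23 were higher by 1 log2 unit or more in untreated MT-2 than in untreated MT-1 (12.4% of all transcript probe sets) and 2 were lower (17.8%). Raising dim levels to the background left 1 of these 8, HOXB9. HOXB9, which patterns the thoracic skeleton, read 11.32 untreated, 10.96 with OR21, 11.27 with EPZ-6438 and 11.57 with the combination in MT-2. In MT-1 it read 5.49, 5.50, 6.85 and 6.63 in the same order. All 4 MT-2 arrays were far above background and all 4 MT-1 arrays below it, so the lines did not overlap, and the untreated difference was at least 3.86 in favour of MT-2. HOXB2, a regulator of hindbrain segments, read 8.16, 7.39, 7.67 and 7.96 in MT-1 and 4.01, 3.98, 4.12 and 4.23 in MT-2. Here the 4 MT-1 arrays stood slightly above background and the 4 MT-2 arrays well below it, which leaves an untreated difference of -0.35 or lower for MT-2 minus MT-1. HOXB7, an axial patterning gene that is often overexpressed in carcinomas, read 7.93, 8.003, 8.45 and 8.65 in MT-1 and 8.54, 8.52, 8.59 and 8.79 in MT-2. It stood above background on every array, and the ranges of the lines overlapped.

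In a limma fit of cell line and treatment to all 8 arrays (12942 probe sets tested, 3 residual degrees of freedom), the line term for MT-2 minus MT-1 was 5.16 (SE 0.25) for HOXB9, with a Benjamini-Hochberg adjusted p of 1.98e-05 in limma. It was -3.71 (SE 0.17) for HOXB2. It was 0.35 (SE 0.15) for HOXB7, which was not called (limma adjusted p = 0.0890), although it was with cyclic loess scaling (0.68, limma adjusted p = 0.0117). HOXC8 and HOXC9 were also higher in MT-2, by 2.79 (SE 0.18) and 1.47 (SE 0.16, limma adjusted p = 0.000472). These are fitted differences of values that were in part below background. The calls of HOXB9 and HOXC9 held in each of the 13 alternatives run. Of all probe sets that passed the filter on low values 63.4% were called. Some HOX genes passed it through 1 line alone, among them HOXB2 (through MT-1) and HOXC8 (through MT-2). For HOXB2 and HOXC8 no p-value of the filtered fit is given, and both were called with no filter as well. The count of HOX genes is likewise given with no filter, where 9 of 23 were called, against 52.0% of all probe sets. The 4 arrays of a line differ in treatment and are not replicates. The p-values rest only on the spread left after line and treatment are fitted. That spread mixes differing responses of the lines, dose included, with technical variation.

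With the combination, HOX genes of clusters C and D read higher in MT-1 cells. Of the 23 members 10 were higher by 1 log2 unit (2-fold) or more than in untreated MT-1 cells, where 8.11% of all transcript probe sets were, and 0 were lower by as much, where 6.32% of all were. The 10 were HOXD4, HOXD8, HOXD10, HOXD11, HOXD13, HOXC8, HOXC9, HOXC10, HOXC13 and HOXB9. This count includes genes below background: raising dim levels to the background left 1, HOXD13. Of the 10, 5 stood above background with the combination, where 5.37% of all probe sets met both conditions. The median change of the members was 0.84, against -0.06 over all transcript probe sets, and 20 of 23 were higher by any amount, where 45.2% of all were. Of the 21 members that were not above background in untreated MT-1 cells, 5 came above it, where 8.79% of all such probe sets did. Those 5, HOXC9, HOXC10, HOXD10, HOXD11 and HOXD13, all belong to clusters C and D. Their paralogue numbers run from 9 to 13, as do those of 12 of all 23 members. Among the 16 members below background on both arrays the median change was 0.68, against -0.05 over the 11400 probe sets in the same position, while the negative controls shifted by a median of -0.28. On the same array 3 of 6 epithelial and stromal markers, KRT8, KRT18 and EPCAM, also read higher by 1 or more and stood above background, and their part in the HOX values was not tested.

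**Figure D2:**
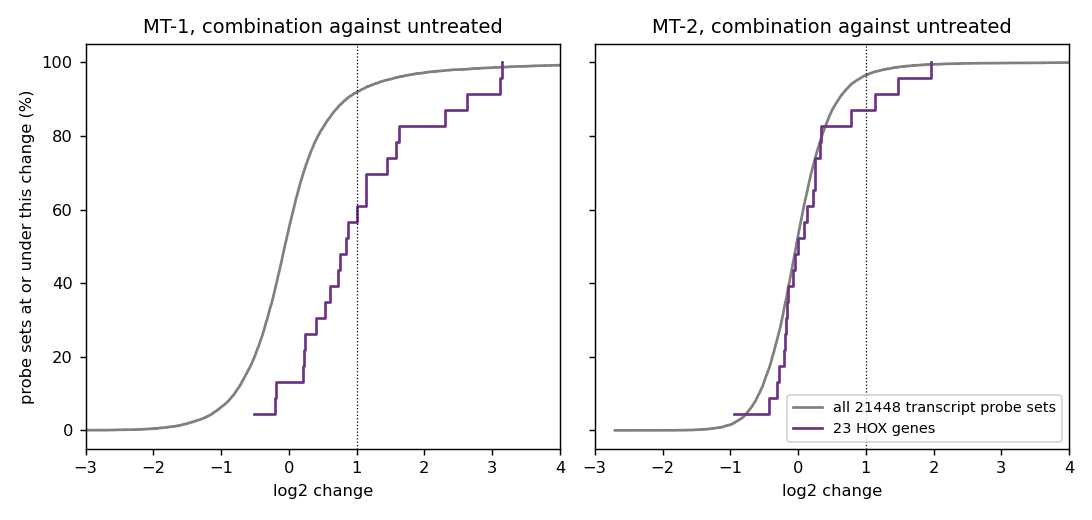
The horizontal axis gives the log2 change with the combination against the untreated array of the same line and the vertical axis the percentage of probe sets at or under that change, for all 21448 transcript probe sets (grey) and the 23 HOX genes (purple). In MT-1 the HOX curve lies to the right of the grey one (medians 0.84 and -0.06), and in MT-2 the curves run together in the middle and part at the upper end, where 3 members were higher by 1 or more.

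HOXD13, the most 5′ gene of its cluster and the patterning gene of the digits, read 5.92 in untreated MT-1 cells, 7.12 with OR21, 5.46 with EPZ-6438 and 9.06 with the combination. Only the last value stood above background, at the 98.7th percentile of the negative controls of its array, and the difference from untreated cells was at least 1.60. In MT-2 it read 5.38, 5.45, 5.38 and 5.09, all below background. HOXD11, which patterns the forearm, read 5.35, 6.60, 6.43 and 7.98 in MT-1 (at least 0.52 with the combination) and 6.33, 5.84, 6.40 and 6.32 in MT-2. HOXD10, active in the limb and the lumbar spinal cord, read 4.27, 5.37, 3.98 and 7.38 in MT-1. Its combination value exceeded the background of its own array (7.19) and not that of the untreated array (7.46), so no size is given for that difference. In MT-2 it read 4.49, 4.57, 4.52 and 5.27. The MT-1 combination array was thus the only array on which these 3 HOXD genes were detected, and on the MT-2 arrays none of the 8 HOXD genes was.

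HOXD12, whose promoter is shown between those of HOXD13 and HOXD11, read 6.47, 6.42, 6.63 and 6.69 in MT-1 and 6.64, 6.76, 6.44 and 6.45 in MT-2, below background throughout. HOXD9, on the other side of HOXD10, was also flat, at 4.27 untreated and 4.51 with the combination in MT-1. HOXD4 read 4.10 untreated and 5.69 with the combination in MT-1, and HOXD8 5.19 and 6.19, both below background. By cluster, the median change with the combination in MT-1 was 1.29 over the 8 HOXD genes, 1.29 over the 6 HOXC genes and 0.46 over the 8 HOXB genes, and HOXA2 differed by 0.87. By paralogue number, the median was 1.30 over the 12 genes numbered 9 to 13, of which 7 were higher by 1 or more. It was 0.72 over the 11 genes numbered 1 to 8, of which 3 were. Most genes numbered 1 to 8 belong to clusters A and B, and most numbered 9 to 13 to clusters C and D. The split by number is therefore not separate from that by cluster. The 3 higher genes numbered 1 to 8 were HOXC8, HOXD4 and HOXD8, all of clusters C and D, where HOXD3 differed by 0.76. HOXC12 differed by -0.20 and HOXD12 by 0.23, both below background on every array, and HOXD9 (0.23) and HOXB1 (0.20) differed as little.

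**Figure D3:**
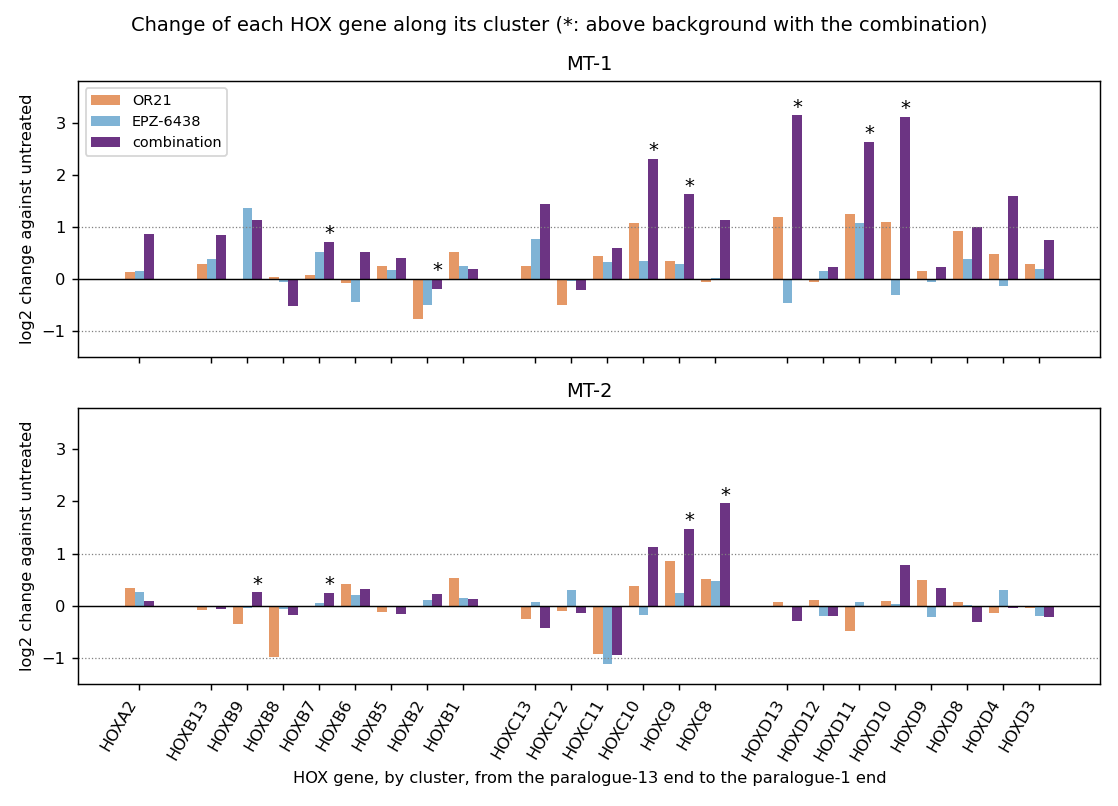
Bars give the log2 change against the untreated array of the same line for each HOX gene (horizontal, by cluster and in order along the cluster from the paralogue 13 end) with OR21, EPZ-6438 and the combination, 1 array each, and a star marks genes above background on the combination array. In MT-1 the tall combination bars are those of HOXD13, HOXD11 and HOXD10 (3.14, 2.63 and 3.11) and of HOXC10 (2.31), all against untreated values below background, which bounds them at 1.60, 0.52, no size and 0.73, with a short one at HOXD12 (0.23), and in MT-2 those of HOXC8 and HOXC9 (1.96 and 1.47).

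HOXC8, HOXC9 and HOXC10, neighbours in cluster C, were the members whose combination values were higher by 1 or more in both lines. HOXC8, which helps specify motor neurons at the level of the forelimb, read 6.87, 7.38, 7.34 and 8.83 in MT-2 and 4.54, 4.48, 4.56 and 5.68 in MT-1. Only the MT-2 combination array stood above background, by at least 1.03 over untreated cells. HOXC9, which sets thoracic identity, read 7.26, 8.11, 7.50 and 8.73 in MT-2 and 5.87, 6.22, 6.15 and 7.49 in MT-1. It came above background on each treated MT-2 array, by at least 0.93 with the combination and at least 0.31 with OR21, and on the MT-1 combination array by at least 0.04. With EPZ-6438 its MT-2 level exceeded the background of its own array and not that of the untreated one. HOXC10, a gene of lumbar level, read 5.88, 6.96, 6.23 and 8.18 in MT-1 (at least 0.73 with the combination) and 6.30, 6.67, 6.13 and 7.43 in MT-2, where the highest value lay just under the background of 7.64. For all 3 genes and in both lines the combination array gave the highest of the 4 values, as it did for HOXB7 and HOXD10.

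**Figure D4:**
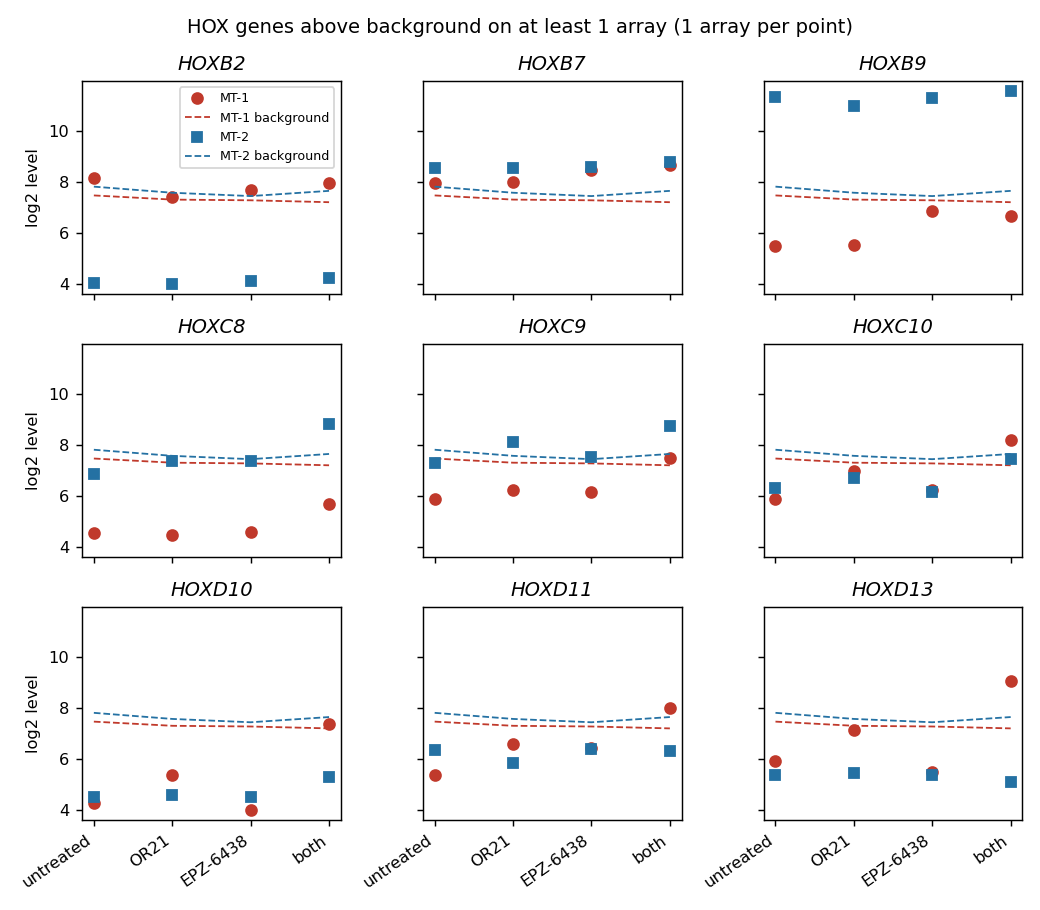
Each panel plots the log2 level of 1 HOX gene on the 4 arrays of MT-1 (circles) and MT-2 (squares), 1 array per point, with the background of each array as a dashed line. HOXB7, HOXC8, HOXC9, HOXC10 and HOXD10 are highest on the combination array in both lines. HOXD10, HOXD11 and HOXD13 stand above background on the MT-1 combination array alone. HOXB2 and HOXB9 separate the lines on every array, and HOXB7 lies above background throughout.

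Across both lines, the combination term of the limma fit was 1.55 for HOXC8 (SE 0.25; unadjusted p = 0.000696, adjusted p = 0.138), 1.55 for HOXC9 (SE 0.23; unadjusted p = 0.000465, adjusted p = 0.129) and 1.72 for HOXC10 (SE 0.30; unadjusted p = 0.00112, adjusted p = 0.145). None was called, as limma called 0 of the 12942 probe sets tested, with 2489 (19.2%) at an unadjusted p under 0.05. With no filter on low values, 5 of the 23 HOX genes had an unadjusted limma p under 0.05, where 15.8% of all 21448 probe sets had, and 0 of either were called. The adjusted p of these 3 genes ran from 0.0336 to 0.515 over the 13 alternatives. The term was 1.94 for HOXD10 (SE 0.62), 1.31 for HOXD11 (SE 0.58, limma adjusted p = 0.281) and 1.43 for HOXD13 (SE 0.88, limma adjusted p = 0.395). The errors of these genes include the difference in response between the lines. Leaving out 1 array, the term of HOXD10 ran from 0.89 (without the MT-1 combination array) to 2.995 (without the MT-2 one), that of HOXD11 from 0.42 (without untreated MT-1) to 2.21 (without untreated MT-2) and that of HOXD13 from -0.18 (without the MT-1 combination array) to 3.03 (without the MT-2 one). Without the MT-2 combination array, when the MT-1 combination array stands alone and is assumed to vary like the others, HOXC9, HOXC10 and HOXD13 were called with limma adjusted p between 0.0336 and 0.0393, among 740 probe sets called. HOXD10 passed the filter only through the MT-1 combination array. For that reason no p-value of the filtered fit is given for HOXD10, and its call without the MT-2 combination array is not counted.

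With the single agents fewer HOX genes differed by 1 or more than with the combination. With OR21 in MT-1, 4 of 23 members were higher by 1 or more (HOXC10, HOXD10, HOXD11 and HOXD13; 3.64% of all probe sets were) and 0 lower (2.48% of all), and 0 of these stood above background. Of the 21 members below background before, 0 came above it with OR21 in MT-1 (5.33% of all such probe sets) and 0 with EPZ-6438 (3.97%). The median of the members was 0.26, against -0.02 over all. With each array centred on its median, 2 of the 4 remained at 1 or more. With OR21 in MT-2, 0 of 23 were higher or lower by 1 (1.88% and 1.25% of all), and 1 of 21, HOXC9, came above background (4.33% of all such probe sets). With EPZ-6438 in MT-1, 2 of 23 were higher by 1 or more (HOXB9 and HOXD11; 0.751% of all), both below background, and 0 were lower (0.247% of all). With EPZ-6438 in MT-2, 0 were higher (0.704% of all) and 1 was lower, HOXC11, which fell by 1.12 and was not above background before (0.415% of all). HOXC9 was the only one of 21 to come above background there (6.06% of all such probe sets). Across lines, limma called 0 probe sets with OR21 (1079, or 8.34%, at an unadjusted p under 0.05) and 0 with EPZ-6438 (285, or 2.20%).

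In MT-2 the combination was followed by a difference of 1 or more in 3 of 23 members, HOXC8, HOXC9 and HOXC10 (3.48% of all probe sets were higher by as much), of which HOXC8 and HOXC9 stood above background (2 of 23, where 2.22% of all met both conditions). None was lower by as much (0 of 23; 1.53% of all). Raising dim levels to the background left 1 of the 3, HOXC8. Of the 21 members below background in untreated MT-2 cells 2 came above it, HOXC8 and HOXC9 (4.92% of all such probe sets). Only 11 of 23 were higher by any amount (47.1% of all). The median over all members was close to 0, against -0.03 over all probe sets, and the HOXD genes had a median of -0.12.

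Against each single agent, 9 of 23 members were higher by 1 or more than with OR21 in MT-1 (4.14% of all probe sets) and 7 than with EPZ-6438 (6.91% of all). In MT-2 these counts were 1 of 23 (1.65% of all) and 3 of 23 (1.99% of all). In MT-1 the combination exceeded OR21 by at least 1.77 for HOXD13, 0.68 for HOXD11, 0.89 for HOXC10, 0.20 for HOXC9 and 0.09 for HOXD10. It exceeded EPZ-6438 by at least 1.80, 0.71, 0.92, 0.23 and 0.12 for the same genes. These 5 came above background where the single-agent array was below it, out of 21 members in either case, against 5.23% of all such probe sets for OR21 and 6.67% for EPZ-6438. In MT-2 it exceeded OR21 by at least 1.27 and EPZ-6438 by at least 1.40 for HOXC8, and OR21 by 0.62 and EPZ-6438 by 1.23 for HOXC9. HOXC8 was the only member of 20 to come above background in either comparison (3.13% of all such probe sets against OR21 and 1.92% against EPZ-6438). These comparisons share the combination arrays. The excess of the combination over the sum of the single changes was 1 or more for 6 of 23 members in MT-1 (4.20% of all probe sets), with 2.40 for HOXD13, 2.32 for HOXD10, 1.25 for HOXD4, 1.18 for HOXC8, 1.06 for HOXB2 and 1.04 for HOXB6, and for 1 of 23 in MT-2 (HOXC11, below background; 2.30% of all). Of these 7 genes only HOXB2 stood above background on all 4 arrays of its line, with single-agent values under the untreated one. The others rest on values below background, so these are differences between signals and not measured sizes. Across lines limma called 0 probe sets for the excess, with 223 (1.72%) at an unadjusted p under 0.05. With no filter 1 of 23 HOX genes, HOXC8, had such a p, where 2.28% of all probe sets had.

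HOXB2, HOXB7 and HOXB9, where detected, were the members whose changes against untreated cells could be measured on both sides. HOXB2 in MT-1 differed from untreated cells by -0.77 with OR21, -0.49 with EPZ-6438 and -0.19 with the combination. HOXB7 differed by 0.07, 0.52 and 0.72 in MT-1 and by -0.02, 0.05 and 0.25 in MT-2. HOXB9 in MT-2 differed by -0.36, -0.05 and 0.25. None of these changes against untreated cells reached 1.

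Other genes of the HOX system, are given by counts over lists drawn up by function. Counts here are of genes that differed by 1 or more with the combination and stood above background on the array where they were higher. Over all transcript probe sets 5.37% were higher and 5.32% lower by this rule in MT-1, and 2.22% and 0.895% in MT-2. Of 7 TALE cofactors measured, which bind DNA together with HOX proteins, 1 was higher with the combination in MT-1 (PBX3, 8.82 to 10.04) and 0 in MT-2 (8.31 to 8.09). Of 16 trithorax genes and partners 0 changed in MT-1 and 1 was higher in MT-2, AFF1, a partner of KMT2A (10.79 to 11.85). KMT2A itself lay between 10.06 and 11.12 on all arrays. CDX1, CDX2 and CDX4, homeobox genes that act upstream of HOX genes, stood above background on no array, and CTCF, which sets boundaries within the clusters, differed by 0.03 with the combination in MT-1 and -0.10 in MT-2. Of 10 PRC2 genes 1 was higher in MT-1, EZH1, the second catalytic subunit (8.18 to 9.40). In MT-2 EZH1 read 8.13 untreated and 7.22 with the combination, the latter below background. There 1 gene was higher, PHF1 (6.72 to 7.75), which stood above background only on the combination array. Its value there did not exceed the untreated background of 7.80, so no size is given. EZH2, the target of EPZ-6438, lay between 13.18 and 13.51 in MT-1 and between 12.06 and 12.36 in MT-2. KMT2A, EZH1, EZH2 and PHF1 were picked out after their values were seen.

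Of 12 genes of PRC1, the other group of Polycomb complexes, 3 were higher and 4 lower by the same rule in MT-1. Of all probe sets 5.37% and 5.32% were. In MT-2 2 were higher and 0 lower (2.22% and 0.895% of all). PHC1 was higher in both lines, from 9.22 to 11.02 in MT-1 and from 7.81 to 9.23 in MT-2, and PHC3 was 11.25 and 12.33 in MT-1 and 9.88 and 10.77 in MT-2. The others, named after their values were seen, were PCGF2 (higher in MT-1), PCGF5 (higher in MT-2), and PCGF1, PCGF6, CBX6 and KDM2B (lower in MT-1). PCGF2 read 6.33 untreated and 7.42 with the combination in MT-1, where the untreated background was 7.46, so no size is given. Of the RNAs made within the clusters 2 were measured, HOXA-AS3 and HOXB-AS3, and neither stood above background on any array, nor did EVX1 and EVX2 at the ends of clusters A and D. Of 18 neighbours outside the clusters 1 was higher and 1 lower with the combination in MT-1. The higher was CALCOCO1, next to HOXC13 at the end of cluster C, which read 7.44 untreated and 9.31 with the combination in MT-1 (at least 1.85) and 6.60 and 7.63 in MT-2, the last below background. It was picked out after its values were seen. The lower was ATP5MC3, near cluster D (13.76 to 12.54). MTX2, at the other end of cluster D and picked out likewise, read 10.69 and 10.31.

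Markers of other cell types differed on the MT-1 combination array as well. KRT8, a keratin of simple epithelia, read 7.77 untreated, 10.02 with OR21, 7.93 with EPZ-6438 and 12.91 with the combination in MT-1. Its partner KRT18 read 5.03 untreated and 9.10 with the combination, and the adhesion molecule EPCAM 4.71 and 8.66. On the MT-2 combination array these 3 read 7.69, 5.24 and 4.27. Over the 6 markers of the list the median change was 2.75 in MT-1 and 0.16 in MT-2. COL1A1 and PECAM1, markers of fibroblasts and endothelium, stood above background on no array. The fibroblast collagen gene COL1A2 stood above it on 6 of 8, every treated array, and read 7.13 untreated and 7.85 with the combination in MT-1 (at least 0.39) and 7.42 and 8.12 in MT-2 (at least 0.32). Of the B cell, myeloid, NK and erythroid markers measured (12 in all), none differed by 1 or more above background in any treatment. Of the 9 T cell markers, CD5 was higher with the combination in MT-2 (by 1.58) and 0 others differed by as much above background. RNA was taken from whole cultures, so HOX expression in few cells and low expression in all cells cannot be told apart.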

How the data were processed

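Gene expression was measured once per line and treatment, on 8 arrays. The deposited table holds log2 values that the authors made with RMA, per the submitters' processing notes; its version, the genome build and the log base are not stated there. Base 2 is assumed because RMA gives it, and whether a rescaling followed is unknown (values ran from 2.14 to 18.91). How differences near background relate to changes in RNA on this scale was not tested.

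From 24351 entries, 2903 control probe sets were left out. The platform annotation gave 1 symbol for 17709 of the 21448 transcript probe sets, several for 0 and none for 3739. Entrez identifiers matched all 23 HOX genes to the RefSeq gene table and changed 0 of their symbols. A probe set entered the fit where its highest value reached the median of the table, 6.57, which kept 12942 probe sets and 10 HOX genes. Counts are given over all 23, since a gene that passed through 1 high array had to differ. limma 3.58.1 (R 4.3.3; lmFit and eBayes) fitted line and treatment, with Benjamini-Hochberg adjustment over all probe sets and a threshold of 0.05. Differences within a line had no test, and were counted at 1 log2 unit. Tested on simulated arrays of the combination comparison (12942 probe sets), the fit called 51 of 100 changed by 2 log2 units and 3 of 100 changed by 1, with 2 false calls. Promoters came from RefSeq.

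Each HOX gene above background on at least 1 array is given in full and the others by range. Other genes came from lists by function, with at most 3 named per list by the size of their combination change among those above background on all arrays, and further ones marked as picked later. The members and lists were chosen with earlier results of these data known. Alternatives were another filter, array scaling, size threshold, background level and a mean trend, and leaving out each array.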

Additional observations from a re-analysis of the deposited data

Results flagged for a closer look

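For 8 changes the lines ran in opposite directions while at least 1 of them reached 1 log2 unit. Whether the lines differ was not tested, since each has 1 array per treatment, and the doses differ too. Values are given for MT-1 first and MT-2 second. The combination gave 3.14 and -0.29 for HOXD13, 2.63 and -0.0049 for HOXD11, 1.59 and -0.05 for HOXD4, 1.45 and -0.43 for HOXC13, and 1.003 and -0.31 for HOXD8. OR21 gave 1.25 and -0.49 for HOXD11. EPZ-6438 gave 1.36 and -0.05 for HOXB9, and 0.33 and -1.12 for HOXC11. HOXD13 and HOXD11 stood above background on the MT-1 combination array and no other, HOXB9 on 0 arrays of MT-1 and 4 of MT-2, and HOXD4, HOXD8, HOXC11 and HOXC13 on none. So of these values only that of HOXB9 in MT-2 compares arrays that are both above background. The others, the OR21 values of HOXD11 and the MT-1 value of HOXB9 included, rest on dim signals on at least 1 side.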

How the results depend on the processing

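No paired analysis was possible because the labels give no replicate numbers and each line and treatment has 1 array; the fit already compares treatments within each line. For the main counts, 82 alternative values stayed within 1.5 times the reported one and 22 did not. Setting levels under background to it left 0 members at 1 log2 unit or more for OR21 and EPZ-6438 in MT-1 and for EPZ-6438 in MT-2, 1 for the combination in each line, and 1 for untreated MT-2 against MT-1. It also turned to minus the changes of HOXB9 (-0.19 with EPZ-6438 and -0.27 with the combination), HOXC8 (-0.27) and HOXD10 (-0.075, both with the combination), HOXC10, HOXD10, HOXD11 and HOXD13 (-0.16, OR21) and HOXD11 (-0.19, EPZ-6438) in MT-1, and of HOXC10 (-0.17, combination) in MT-2. By construction these are differences between background levels and no measured falls. At a 4-fold threshold 4 members remained for the combination in MT-1, 0 in MT-2, 0 for OR21 and EPZ-6438 in MT-1 and for EPZ-6438 in MT-2, and 3 between the untreated lines. At 1.5-fold there were 3 with OR21 and 5 with the combination in MT-2. With arrays centred on their medians 2 members reached 1 with OR21 in MT-1 and 1 (lower) in MT-2, where cyclic loess also gave 1. Members ever above background numbered 1 at the 99th percentile and 0 at the highest negative control. For the combination across lines, limma called 10 probe sets (0 of them HOX) with a mean trend and 0 to 740 on leaving out 1 array, with 0 to 7 for the excess. Leaving out 1 array, the combination term of HOXD13 ran from -0.18 (without the MT-1 combination array) to 3.03, and that of HOXB2 from -0.28 (without the untreated MT-2 array) to 0.30, with -0.0050 without the MT-1 combination array. Centring gave -0.13 for HOXB2. The causes were not tested. The 8 arrays, and signals of most HOX genes near background, limit the precision.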
